A study of Homo sapiens with 12 samples.

Results

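The 43 genes described here encode the machinery of G2 phase and mitosis, from the cyclins and kinases that start cell division to the proteins that cut the daughter cells apart. They were taken by gene name from a fixed list and all 43 were found among the 57905 genes of the count table. All 43 also passed the filter on low counts, which kept 15142 genes. The study treated MDA-MB-231, an established human triple-negative breast cancer cell line, and measured total RNA by sequencing. Its 4 groups of 3 libraries were cells given vehicle, SFN at 1 µM, ZA at 0.5 µM, or SFN and ZA together at the same doses (SFN+ZA), each for 48 hours. The labels give the agents by these abbreviations, and the vehicle was DMSO at 0.01% with water at 0.05%. Dishes were plated in triplicate from this single line, and no label says that replicates were separate cultures, so the p-values reflect only variation among these samples, possibly technical. In the table's GRCh37 coordinates the genes the results turn on most are CCNB1 (ENSG00000134057, chr5:68462837-68474072, plus strand), PTTG1 (ENSG00000164611, chr5:159848829-159855748, plus), AURKB (ENSG00000178999, chr17:8108056-8113918, minus) and CDK1 (ENSG00000170312, chr10:62538089-62554610, plus). The comparisons ask how each agent alone and the combination altered the transcriptome of these cells.

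Cyclin B and cyclin A bind CDK1, and CDC25 phosphatases remove the inhibitory phosphates that hold CDK1 back until the cell enters mitosis. Aurora and Polo kinases then build the spindle, the spindle checkpoint delays anaphase until kinetochores are attached, and CDC20 and UBE2C turn the anaphase-promoting complex against securin and cyclin B. Most of these genes are transcribed together late in the cell cycle, and their regulators include the DREAM complex, B-MYB and FOXM1. Their promoters often hold elements known as the cell cycle genes homology region (CHR) and the CCAAT box. The transcripts are abundant in fast-dividing tumour cells.

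Promoters are shown for a few members as examples, because these elements are frequent in the family. RefSeq windows on GRCh38.p14, 250 bases before to 50 bases after each start, were found for 36 of the 43 members. Capitals mark the CHR letters TTTGAA and the CCAAT box letters CCAAT, each searched on both strands (TTCAAA and ATTGG on the other strand), and these words do not overlap each other in the windows printed. The CDK1 window lies at chr10:60778228-60778527 on the plus strand, CCNB2 at chr15:59104896-59105195 on the plus strand, PLK1 at chr16:23678639-23678938 on the plus strand and AURKB at chr17:8210176-8210475 on the minus strand, printed 5′ to 3′ in the direction of transcription.
CDK1: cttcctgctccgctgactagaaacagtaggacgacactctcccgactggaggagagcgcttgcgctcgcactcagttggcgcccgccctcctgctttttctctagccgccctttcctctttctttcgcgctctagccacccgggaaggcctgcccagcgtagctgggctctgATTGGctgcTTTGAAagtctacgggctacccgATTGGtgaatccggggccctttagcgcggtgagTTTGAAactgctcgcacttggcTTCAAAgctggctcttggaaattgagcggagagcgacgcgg
CCNB2: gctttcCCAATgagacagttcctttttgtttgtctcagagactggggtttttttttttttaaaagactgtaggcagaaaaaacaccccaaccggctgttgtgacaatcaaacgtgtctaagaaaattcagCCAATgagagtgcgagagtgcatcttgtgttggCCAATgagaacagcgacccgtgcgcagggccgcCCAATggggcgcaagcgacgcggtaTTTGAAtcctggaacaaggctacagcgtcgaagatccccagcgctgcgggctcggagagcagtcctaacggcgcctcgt
PLK1: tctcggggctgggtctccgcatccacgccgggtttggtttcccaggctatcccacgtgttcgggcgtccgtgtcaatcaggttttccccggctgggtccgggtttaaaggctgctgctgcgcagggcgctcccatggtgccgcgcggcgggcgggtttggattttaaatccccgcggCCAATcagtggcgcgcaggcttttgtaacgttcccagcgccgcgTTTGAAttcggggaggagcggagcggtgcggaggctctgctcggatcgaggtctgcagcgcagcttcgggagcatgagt
AURKB: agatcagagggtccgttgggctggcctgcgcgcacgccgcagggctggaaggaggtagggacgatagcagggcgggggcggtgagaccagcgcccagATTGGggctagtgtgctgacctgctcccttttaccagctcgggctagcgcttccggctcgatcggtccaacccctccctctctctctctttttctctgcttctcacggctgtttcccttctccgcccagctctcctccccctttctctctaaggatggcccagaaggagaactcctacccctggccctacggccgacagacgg
The CDK1 window holds 3 CHR words and 2 CCAAT words, the CCNB2 window 1 and 4, the PLK1 window 1 and 1, and the AURKB window no CHR word and 1 CCAAT word. The windows of CCNB1 and PTTG1, not printed, hold no CHR word, with 2 CCAAT words for CCNB1 and 3 for PTTG1. Over the members, 26 of 36 (72.2%) held the CHR letters in at least 1 window, against 18.2% of all 27305 genes with windows. CCAAT was held by 30 of 36 (83.3%) against 39.7%, and both by 22 of 36 (61.1%) against 8.37%. These are matches of letters and not measured binding sites. AURKA, TPX2, BUB3, FOXM1, UBE2C, TTK and BIRC5 were not matched to a window.

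Library totals ran from 15.3 to 25.4 M counts (M, mega), and every member had between 285 and 27667 counts in each library. The line's defining markers were present, with VIM at a median of 1072 CPM (counts scaled to a common library total by TMM) and AXL at 1189, while ESR1 had at most 2 counts in a library and PGR had none. SPARC, listed as high in this line, reached only 1.28 CPM, and of the markers listed as low or absent EPCAM had 14.9 to 41.2 CPM and CDH1 0.702 to 2.88 CPM. Of the luminal breast markers, KRT18 had 186 to 298 CPM and GATA3 11.9 to 20.3 CPM. TFF1 had at most 9 counts in a library and FOXA1 at most 1. Of 8 tabulated markers of blood, endothelial and fibroblast cells, CD3E was at 0 in all 12 libraries, and the sum over the 8 was 24.4 to 32.6 CPM in vehicle, 11.9 to 27.6 in SFN, 28.2 to 32.0 in ZA and 29.3 to 29.6 in SFN+ZA, mostly COL1A1 and COL1A2. Their part in the results below was not tested. SFN library 2 and, to a lesser degree, vehicle library 2 stood apart on the first principal component, which held 70.4% of the variance. Mitochondrial transcripts made up 0.775% to 3.27% of counts in vehicle, lowest in vehicle 2, 1.60% to 4.32% in SFN, 4.26% to 4.76% in ZA and 4.69% to 5.30% in SFN+ZA. RNA28S5 made up 0.585% to 2.06% in vehicle, 0.0161% to 1.22% in SFN, lowest in SFN 2, 0.713% to 1.06% in ZA and 0.337% to 0.519% in SFN+ZA. In both measures SFN+ZA did not overlap vehicle, and their part in the values of SFN+ZA against vehicle below was not tested. The members together took 0.758% to 1.27% of counts, with the highest share in SFN 2. Where a member's log2 fold change changes sign or moves by over 1.5 times without these 2 libraries, the value on the other 10 libraries stands in brackets beside it.

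Vehicle-treated cells held high levels of nearly the whole programme. Per length, the members had a median of 40.5 FPKM (fragments per kilobase, scaled for depth) in vehicle against 6.05 FPKM for the 12718 tested protein-coding genes, and 42 of the 43 members lay above that value. The highest were CCNB1, cyclin B1, at 173 ± 32.8 FPKM (SD, n = 3) and CKS2, a small CDK-binding subunit, at 163 ± 17.9 FPKM. TPX2, which activates Aurora A on the spindle, followed at 152 ± 9.70 FPKM and UBE2C, the ubiquitin-conjugating enzyme of the anaphase-promoting complex, at 147 ± 4.47 FPKM. Each of these 4 lies within 1 SD of its neighbour in the order, so their order is not resolved. At the low end HMMR, a spindle-associated hyaluronan receptor, had 6.00 ± 1.10 FPKM, BIRC5 (survivin) had 10.9 ± 2.86 FPKM and CDC25C had 13.0 ± 1.21 FPKM. BIRC5 and CDC25C also lie within 1 SD of each other, whereas HMMR lies below both by more than their SD.

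**Figure D1:**
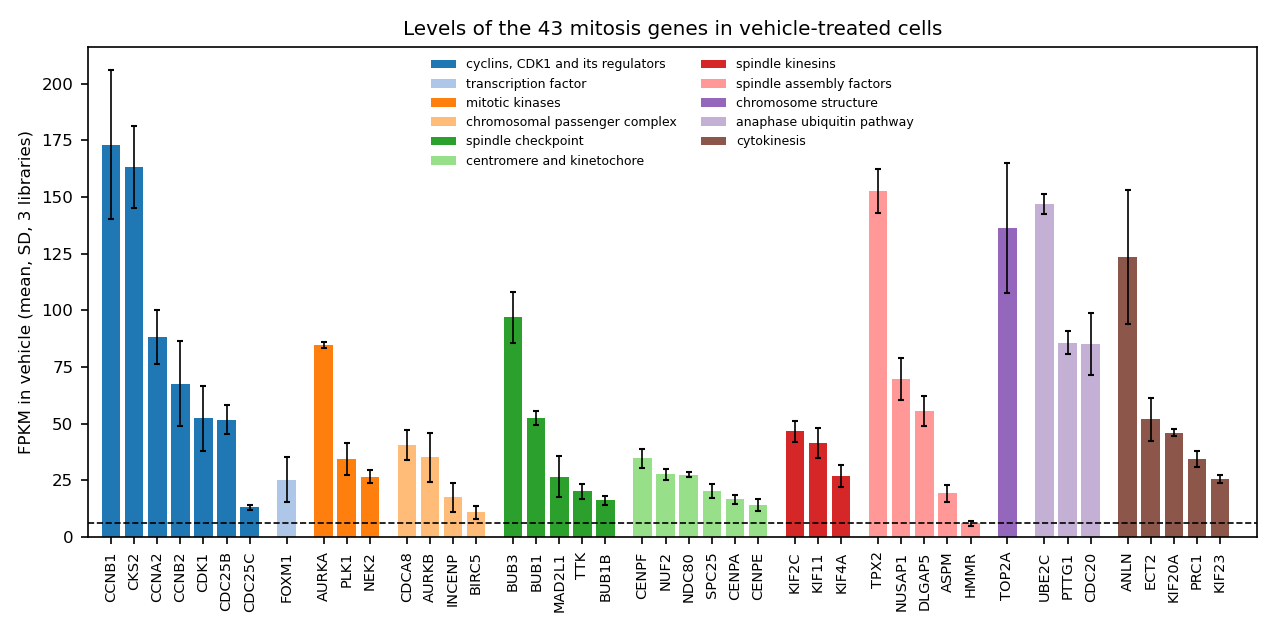
FPKM in vehicle-treated cells for each of the 43 genes, grouped by role, with bars for the mean and error bars for the SD over 3 libraries. The dashed line is the median of tested protein-coding genes (6.05 FPKM), and every bar except HMMR (6.00 FPKM) reaches above it.

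Roles differed widely inside the programme. Kinetochore components sat low to middling in vehicle, from CENPE at 13.9 ± 2.58 FPKM to CENPF at 34.6 ± 4.005 FPKM, while the anaphase genes CDC20, PTTG1 and UBE2C lay between 85.2 and 147 FPKM. Among the kinases AURKA had 84.7 ± 1.38 FPKM against 34.4 ± 7.17 FPKM for PLK1 and 35.1 ± 10.7 FPKM for AURKB. AURKA was also the steadiest member across the study, with its highest library 1.13 times its lowest, against a median ratio of 2.26 over the members. AURKB had the highest ratio at 3.53, with SFN 2 its lowest library. Without SFN 2 and vehicle 2 its ratio was 1.66 and TTK had the highest at 1.76, and over all 12 libraries after adjustment for GC content, described below, AURKB had 1.48 against 2.22 for both FOXM1 and PRC1.

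No member changed by the test in any comparison. With edgeR's quasi-likelihood test and Benjamini-Hochberg adjustment over all 15142 genes, 0 of 43 members had an adjusted p under 0.05 in the 6 comparisons (each agent and the combination against vehicle, the combination against each agent, and their interaction), and 0% of all genes did. At an unadjusted p under 0.05, SFN against vehicle held 5 of 43 members against 4.97% of all genes, ZA against vehicle 0 against 1.14%, and SFN+ZA against vehicle 2 against 4.91%. SFN+ZA against SFN held 23 of 43 against 21.9%, SFN+ZA against ZA 0 against 1.05%, and the interaction 0 against 1.7%. DESeq2's Wald test called 0 members in each comparison as well, while it called 21 genes in SFN+ZA against vehicle and 6 in SFN+ZA against SFN. In the authors' deposited table no member had an adjusted p under 0.05 either, where 0.179% of genes with a value did for SFN+ZA against vehicle, 0.0405% for SFN+ZA against SFN and 0.0437% for SFN+ZA against ZA. The standard error of a member's log2 fold change against vehicle had a median of 0.22 in the SFN+ZA comparison, from 0.10 to 0.34, so moderate differences were not detectable with these libraries. In bulk RNA, fewer cells in G2 or mitosis and less RNA per such cell cannot be told apart.

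CCNB1, CCNB2, CCNA2 and CDK1 had their lowest group means in the combination, although none passed the test. CCNB1 stood at 368, 543 and 440.3 CPM in vehicle, 442, 596 and 434 in SFN, 431, 362 and 337 in ZA and 323, 357 and 338 in SFN+ZA. Every SFN+ZA library lay below every vehicle and SFN library, while ZA overlapped both vehicle and SFN+ZA. Its log2 fold change in SFN+ZA against vehicle was -0.41 ± 0.18 (-0.27 ± 0.12 on 10 libraries) (SE, edgeR, unadjusted p = 0.0429, adjusted p = 0.861). CDK1 was measured at 164, 273 and 187 CPM in vehicle, 195, 351 and 212 in SFN, 214, 161 and 153 in ZA and 154, 179 and 164 in SFN+ZA. SFN+ZA overlapped vehicle and ZA here, and SFN 2 was the highest library. CDK1 had -0.33 ± 0.25 (-0.10 ± 0.14 on 10 libraries) in SFN+ZA against vehicle and -0.61 ± 0.25 (-0.31 ± 0.14 on 10 libraries) against SFN on the log2 scale.

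CCNB2, CCNA2, CDC25C and CKS2 had values of the same sign, and CDC25B did not. CCNB2, the second B-type cyclin, had -0.49 ± 0.26 (-0.25 ± 0.09 on 10 libraries) in SFN+ZA against vehicle, the lowest log2 fold change of any member in that comparison on 12 libraries, and its groups did not overlap. CCNA2, cyclin A2, had -0.28 ± 0.24 (-0.18 ± 0.11 on 10 libraries), with EXOSC9 overlapping it on the opposite strand at 28.0% of its count, so its counts are uncertain without a known strand setting. CDC25C had -0.32 ± 0.14 with no overlap of groups (unadjusted p = 0.0384, adjusted p = 0.861 in edgeR), but FAM53C overlaps it with more counts than CDC25C itself. CKS2 had -0.17 ± 0.13 and CDC25B, the earlier-acting CDK1 phosphatase, had 0.13 ± 0.24 (0.02 ± 0.09 on 10 libraries).

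FOXM1, the transcription factor that drives many of these genes, had a log2 fold change near 0 in SFN+ZA against vehicle once vehicle 2 and SFN 2 were left out. FOXM1 stood at 154, 67.7 and 146 CPM in vehicle, 133, 84.9 and 108 in SFN, 109, 159 and 153 in ZA and 151, 146 and 150.2 in SFN+ZA. Vehicle 2 was the lowest library and SFN 2 the next, and the groups overlapped in each comparison with vehicle. Its log2 fold change in SFN+ZA against vehicle was 0.28 ± 0.29 (-0.03 ± 0.15 on 10 libraries), and -0.05 ± 0.10 on 10 libraries with the GC adjustment described below. RHNO1 overlaps FOXM1 on the opposite strand at 36.3% of its count.

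Of the mitotic kinases, PLK1 varied strongly with library and AURKA hardly at all. PLK1 stood at 191, 127 and 181 CPM in vehicle, 169.7, 63.1 and 161 in SFN, 154, 189 and 191 in ZA and 168, 179 and 178 in SFN+ZA. SFN 2 was far below all others and vehicle 2 was next, and all groups overlapped. AURKA stood at 248, 258 and 252 CPM in vehicle, 250.2, 262 and 238 in SFN, 236, 244 and 252 in ZA and 235, 232 and 241 in SFN+ZA. AURKA stayed between 232 and 262 CPM, and SFN+ZA lay just below vehicle with no overlap at -0.10 ± 0.10 on the log2 scale. NEK2, a centrosome kinase, had -0.30 ± 0.24 in the same comparison.

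The chromosomal passenger genes encode proteins that correct wrong spindle attachments. Some of their values in ZA and SFN+ZA against vehicle changed sign when vehicle 2 and SFN 2 were left out. Of these libraries only vehicle 2 belongs to the groups compared. AURKB stood at 99.3, 53.0 and 86.7 CPM in vehicle, 82.4, 31.1 and 70.2 in SFN, 66.1, 95.2 and 98.6 in ZA and 109.8, 102 and 102 in SFN+ZA. The 3 SFN+ZA libraries were the highest 3 of all 12 and SFN 2 was the lowest. AURKB had 0.39 ± 0.33 (0.15 ± 0.15 on 10 libraries) in SFN+ZA against vehicle and 0.77 ± 0.34 (0.45 ± 0.16 on 10 libraries) against SFN (unadjusted p = 0.0420, adjusted p = 0.225 in edgeR). BIRC5 stood at 53.4, 32.1 and 40.9 CPM in vehicle, 32.7, 23.3 and 33.6 in SFN, 35.7, 45.7 and 51.7 in ZA and 47.4, 41.1 and 41.8 in SFN+ZA. Every SFN library lay below every ZA and SFN+ZA library, and vehicle overlapped all 3 other groups. BIRC5 had the lowest value of any member in SFN against vehicle, -0.49 ± 0.22 (edgeR, unadjusted p = 0.0479, adjusted p = 0.728). On 10 libraries BIRC5 had -0.51 ± 0.17 (edgeR, unadjusted p = 0.0114, adjusted p = 0.517), the 1 member there with an unadjusted p under 0.05. With the GC offset described below, on 12 libraries, BIRC5 had -0.30 ± 0.14 (edgeR, unadjusted p = 0.0521). On 12 libraries all 4 genes of the complex (AURKB, INCENP, BIRC5 and CDCA8) had negative values in SFN against vehicle and positive values in ZA and in SFN+ZA against vehicle. On 10 libraries AURKB, BIRC5 and CDCA8 had -0.11, -0.10 and -0.09 in ZA against vehicle, and BIRC5 and CDCA8 had -0.13 and -0.14 in SFN+ZA against vehicle, so these values turned negative. INCENP, the scaffold, had 0.43 ± 0.34 (0.13 ± 0.18 on 10 libraries) in SFN+ZA against vehicle, the highest value of any member on 12 libraries, where on 10 libraries CENPA had the highest at 0.16.

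**Figure D2:**
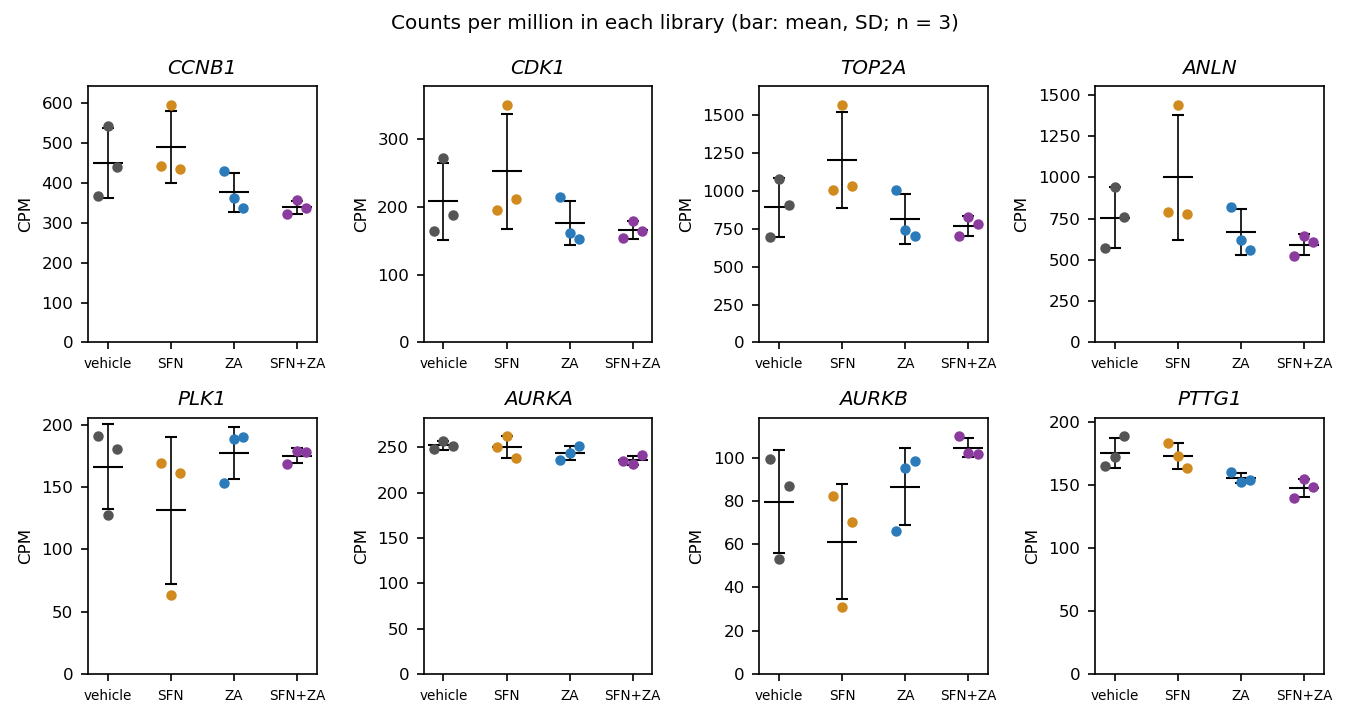
CPM of 8 members in each of the 12 libraries, with points for libraries and bars for the mean and SD of 3 libraries. SFN 2 is the highest point for CCNB1, CDK1, TOP2A and ANLN and the lowest for PLK1 and AURKB, and AURKA stays between 232 and 262 CPM.

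Spindle checkpoint genes were all positive in SFN against vehicle, with SFN 2 leading. MAD2L1 stood at 114, 215 and 136 CPM in vehicle, 149.9, 248 and 154 in SFN, 143, 116 and 115 in ZA and 111, 124 and 120.4 in SFN+ZA. SFN 2 and vehicle 2 were the highest libraries for MAD2L1, which makes the MAD2 inhibitor of CDC20, and SFN+ZA overlapped vehicle and ZA. BUB1B stood at 71.2, 64.6 and 83.9 CPM in vehicle, 85.1, 119.5 and 76.9 in SFN, 78.6, 75.7 and 68.7 in ZA and 72.4, 81.8 and 86.0 in SFN+ZA. For BUB1B, the BubR1 checkpoint protein, vehicle 2 was the lowest library and SFN 2 the highest. TTK, the MPS1 kinase that starts checkpoint signalling, had the highest value of any member in SFN against vehicle on 12 libraries, 0.58 ± 0.25 (0.32 ± 0.23 on 10 libraries), with no overlap (edgeR, unadjusted p = 0.0423 on 12 libraries and 0.188 on 10, adjusted p = 0.728 on 12). On 10 libraries TOP2A (0.34) and CENPE (0.33) lay above it. TTK also had the lowest value in SFN+ZA against SFN on 12 libraries, -0.79 ± 0.25, and those comparisons share the SFN libraries. BUB1 and BUB3 had -0.10 and -0.19 (-0.12 on 10 libraries) in SFN+ZA against vehicle.

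Centromere and kinetochore genes split by gene. CENPA stood at 34.6, 36.4 and 29.4 CPM in vehicle, 28.0, 39.6 and 30.3 in SFN, 28.0, 35.3 and 39.7 in ZA and 41.8, 33.7 and 33.4 in SFN+ZA. The groups overlapped in every comparison for CENPA, the centromeric histone H3 variant, and SLC35F6 overlaps it on the same strand with more counts than CENPA. CENPE stood at 108, 133 and 161 CPM in vehicle, 162, 219.98 and 177 in SFN, 167, 128 and 109 in ZA and 116, 159 and 148 in SFN+ZA. Every SFN library was above every vehicle library for CENPE, a kinetochore kinesin, at 0.48 ± 0.21 (unadjusted p = 0.0463, adjusted p = 0.728 in edgeR), though SFN 1 exceeded vehicle 3 only narrowly. NDC80 stood at 95.3, 105 and 101 CPM in vehicle, 108, 186 and 95.0 in SFN, 100.2, 87.4 and 83.0 in ZA and 79.3, 92.6 and 89.6 in SFN+ZA. SFN 2 stood far above the rest for NDC80, the microtubule-binding kinetochore subunit, and SFN+ZA lay below vehicle without overlap. Its partner SPC25 had -0.42 ± 0.22 in SFN+ZA against vehicle, again without overlap, while NOSTRIN overlaps it at 10.985% of its count. CENPF had 0.08 ± 0.23, within 1 SE of 0.

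All of the 8 spindle motors and assembly factors but KIF2C were highest in SFN 2. KIF11 stood at 168, 235 and 213 CPM in vehicle, 229.6, 416 and 227 in SFN, 245, 181 and 184 in ZA and 171, 194 and 195 in SFN+ZA. SFN 2 was the highest library for KIF11, the Eg5 motor that pushes spindle poles apart, and ZA overlapped all other groups. TPX2 stood at 536, 536 and 606 CPM in vehicle, 619, 833 and 574 in SFN, 582, 509 and 498 in ZA and 466, 537 and 514 in SFN+ZA. SFN+ZA overlapped vehicle and ZA and lay below SFN. ASPM, a spindle pole protein, had 0.56 ± 0.25 (0.26 ± 0.19 on 10 libraries) in SFN against vehicle (edgeR, unadjusted p = 0.0428 on 12 libraries and 0.194 on 10, adjusted p = 0.728 on 12) with overlapping libraries. DLGAP5, a spindle microtubule stabiliser, had -0.72 ± 0.23 (-0.39 ± 0.14 on 10 libraries) in SFN+ZA against SFN. KIF2C, a microtubule depolymerase, and KIF4A, a chromokinesin, had -0.15 (-0.07 on 10 libraries) and -0.21 (-0.08 on 10 libraries) in SFN+ZA against vehicle, and NUSAP1, NUF2 and HMMR had -0.21 (-0.13 on 10 libraries), -0.14 and -0.14.

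TOP2A, the topoisomerase that untangles sister chromatids, was the member with the most counts. TOP2A stood at 693, 1081 and 906 CPM in vehicle, 1006, 1568 and 1036 in SFN, 1004, 741 and 702 in ZA and 699.7, 828 and 783 in SFN+ZA. SFN 2 was the highest library and vehicle 2 the next, and SFN+ZA overlapped vehicle and ZA but not SFN. TOP2A had 0.43 ± 0.22 in SFN against vehicle and -0.64 ± 0.22 (-0.42 ± 0.15 on 10 libraries) in SFN+ZA against SFN.

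Anaphase genes showed small values in the same direction in ZA and SFN+ZA for PTTG1 and UBE2C. PTTG1 stood at 165, 172 and 189 CPM in vehicle, 183, 173 and 163 in SFN, 160.1, 153 and 154 in ZA and 139.9, 154 and 149 in SFN+ZA. Every ZA and SFN+ZA library lay below every vehicle library for PTTG1 (securin), at -0.17 ± 0.11 and -0.25 ± 0.11 on the log2 scale (edgeR, unadjusted p = 0.153 and 0.0503, adjusted p = 0.9803 and 0.861). UBE2C stood at 234, 252 and 249.99 CPM in vehicle, 228, 176 and 233 in SFN, 208, 224 and 231 in ZA and 220.2, 208 and 207 in SFN+ZA. The ZA and SFN+ZA libraries of UBE2C were also all below vehicle, at -0.15 ± 0.13 and -0.21 ± 0.13. CDC20 stood at 203, 149 and 178 CPM in vehicle, 187, 103 and 154 in SFN, 153, 185 and 196 in ZA and 187, 181 and 189.7 in SFN+ZA. CDC20, the activator of the anaphase-promoting complex, overlapped between groups in each comparison with vehicle.

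On 12 libraries all 5 cytokinesis genes had positive values in SFN against vehicle and negative values in SFN+ZA against vehicle. On 10 libraries KIF20A and PRC1 had -0.16 and -0.14 in SFN against vehicle, so both turned negative. ANLN stood at 569, 939 and 759 CPM in vehicle, 787, 1437 and 776 in SFN, 823, 619.6 and 561 in ZA and 523, 644 and 608 in SFN+ZA. SFN 2 was the highest library for ANLN, the contractile ring scaffold, and SFN+ZA lay below SFN without overlap. ANLN had -0.76 ± 0.27 (-0.41 ± 0.16 on 10 libraries) in SFN+ZA against SFN (unadjusted p = 0.0171, adjusted p = 0.223 in edgeR). KIF20A stood at 184, 190.4 and 181 CPM in vehicle, 172, 262 and 157 in SFN, 160.4, 183 and 186 in ZA and 166, 179 and 179.8 in SFN+ZA. SFN 2 was again the highest, SFN 3 the lowest, and BRD8 and CDC23 overlap KIF20A on the opposite strand at 66.6% and 40.1% of its count. KIF23, a central spindle motor, had 0.52 ± 0.23 (0.22 ± 0.16 on 10 libraries) in SFN against vehicle without overlap (edgeR, unadjusted p = 0.0442 on 12 libraries and 0.211 on 10, adjusted p = 0.728 on 12), and PRC1 and ECT2 had -0.07 (-0.00127 on 10 libraries) and -0.21 (-0.09 on 10 libraries) in SFN+ZA against vehicle.

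Over the members, the median log2 fold change was 0.25 in SFN against vehicle with 15 of 43 below 0, and -0.07 in ZA against vehicle with 30 below 0. It was -0.15 in SFN+ZA against vehicle with 30 below 0, -0.40 in SFN+ZA against SFN with 34 below 0, and -0.06 in SFN+ZA against ZA with 31 below 0. The interaction (how far the combined treatment departs from adding the log2 changes of both agents) had a median of -0.29 with 31 below 0. Medians over all genes tested lay between -0.01 and 0.05 in the same 6 comparisons. SFN 2 was the highest library for 29 members and the lowest for 9, and SFN+ZA 1 was the lowest for 18. Without SFN 2 and vehicle 2 the member medians were 0.06, -0.06, -0.10, -0.21, -0.07 and -0.13 in the order above, so those of SFN against vehicle, SFN+ZA against SFN and the interaction fell in size by more than 1.5 times.

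Groups that did not overlap were counted as a description. In SFN against vehicle 6 members lay higher and 1 lower, against 7.88% of all genes in either direction. In ZA against vehicle 0 lay higher and 3 lower against 7.54%, and in SFN+ZA against vehicle 2 lay higher and 11 lower (30.2% of members) against 21.2%. In SFN+ZA against SFN 5 lay higher and 26 lower (72.1%) against 47.1%, and in SFN+ZA against ZA 2 and 2 against 12.8%. By GC content, 16 of the 18 members under 42% lay lower without overlap in SFN+ZA against SFN, against 58.6% of all genes in that class. At 42 to 50% GC 10 of 15 members lay lower, against 28.1%. At 50% or more 0 of 10 lay lower, against 2.36%, and 5 lay higher, against 45.6%.

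The direction of a member's value went with the GC content of its longest transcript. GC content ran from 35.3% in CENPE to 59.6% in INCENP, with a median of 42.6% against 48.4% for tested protein-coding genes. Across the 43 members the rank correlation of log2 fold change with GC content was -0.85 in SFN against vehicle and 0.82 in SFN+ZA against SFN, as a description of genes that share the same libraries, against -0.67 and 0.76 over 14747 genes. The 18 members under 42% GC had a median of 0.40 in SFN against vehicle, where 17 were above 0, and the 10 members at 50% or more had -0.27, where 10 were below 0. In SFN+ZA against SFN the same classes had -0.62 with 18 below 0 and 0.44 with 8 above 0. All tested genes of these classes had medians of 0.30 and -0.29 in the first comparison and -0.48 and 0.56 in the second. The classes were drawn after the values were seen.

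**Figure D3:**
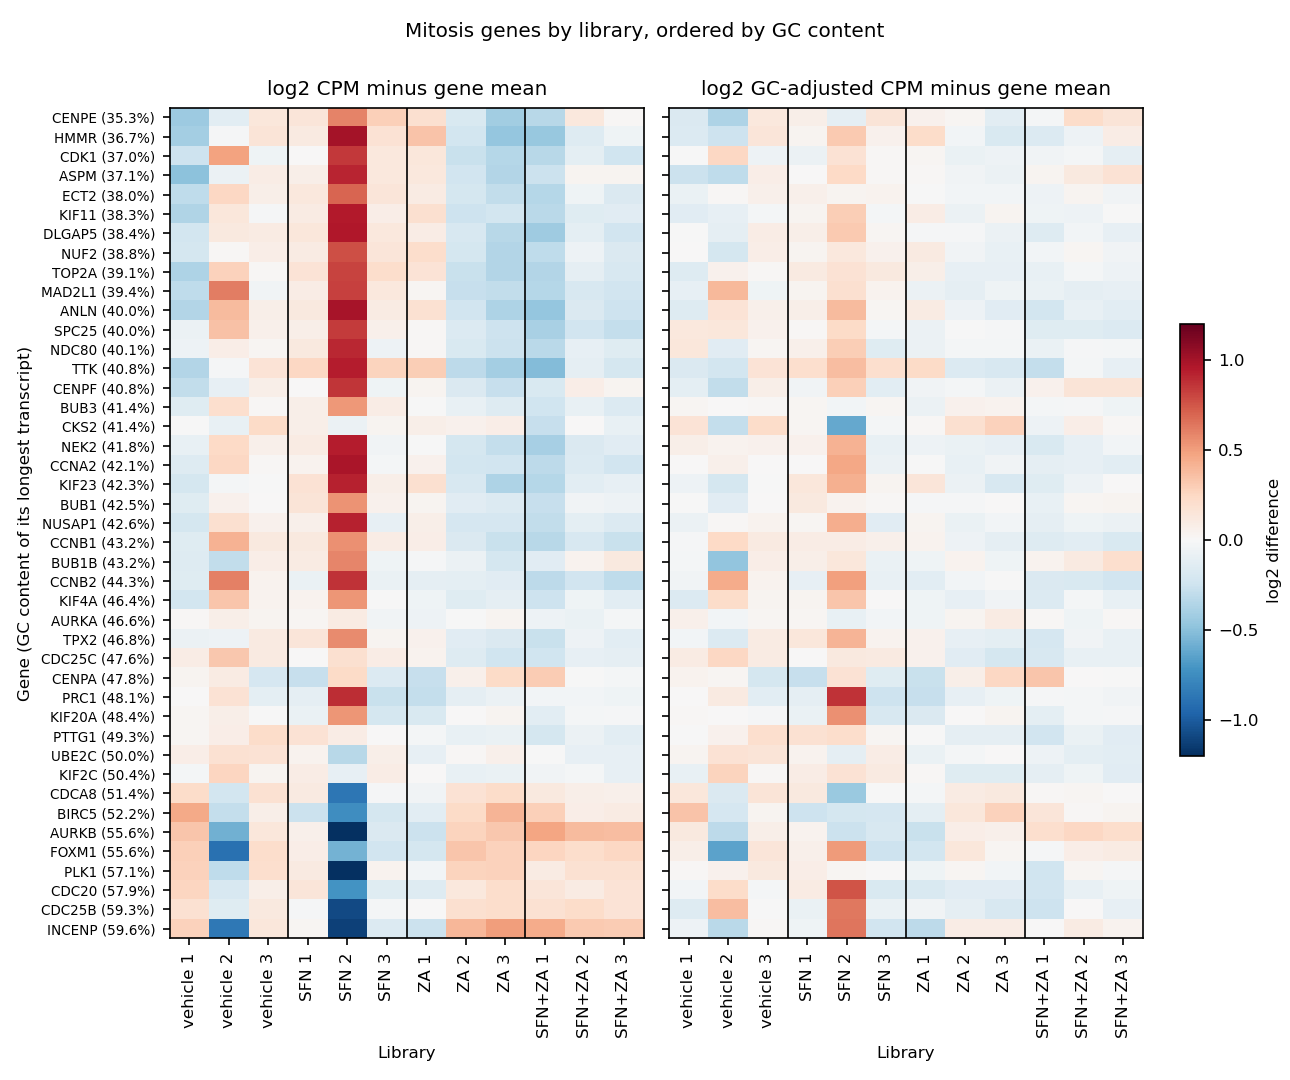
Each row is a gene, ordered by the GC content in brackets, and each column a library, coloured by log2 CPM minus the gene's mean over 12 libraries, before (left) and after (right) adjustment for GC content. Values in SFN 2 are given here as deviations from the gene's median, not its mean. Before adjustment the 18 genes under 42% GC have a median of 0.91, the 15 at 42 to 50% 0.58 and the 10 at 50% or more -0.89. After it the same classes have 0.24, 0.36 and 0.10.

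Library 2 of SFN carried the pattern most strongly but not alone. Log2 deviations here are from each gene's median over the 12 libraries. The median deviation of the 18 members under 42% GC was 0.91 in SFN 2, and between -0.30 and 0.17 in the other 11 libraries. The 10 members at 50% or more had -0.89 in SFN 2 and -0.33 in vehicle 2, with the other 10 libraries between -0.20 and 0.11. Without SFN 2 and vehicle 2 the members' rank correlation with GC content was -0.87 in SFN against vehicle and 0.79 in SFN+ZA against SFN, while over all genes it was smaller in size than before at -0.48 and 0.58. In ZA against vehicle the members' value went from 0.36 on 12 libraries to -0.42 on 10, with 0.53 and 0.06 over all genes.

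With a smooth GC offset for each library the members varied less. The median ratio of highest to lowest library over the members was 1.48 after adjustment, and smaller than before for 36 of 43 members. PLK1 stood at GC-adjusted 173, 178 and 186 CPM in vehicle, 181, 174 and 172 in SFN, 165, 175 and 167 in ZA and 145, 174 and 170.4 in SFN+ZA. SFN 2 no longer stood below the other libraries for PLK1, whose lowest was SFN+ZA 1. CDK1 stood at GC-adjusted 188, 224 and 180.3 CPM in vehicle, 179.9, 212 and 190.2 in SFN, 191, 178 and 180.2 in ZA and 183, 185 and 175 in SFN+ZA. All but vehicle 2 and SFN 2 lay between 175 and 191 CPM for CDK1. With the offset the member medians were 0.10, -0.03, -0.05, -0.18, -0.03 and -0.10 in the order above, and the rank correlations with GC content -0.21 in SFN against vehicle and -0.06 in SFN+ZA against SFN. Of the members' 258 log2 fold changes over the 6 comparisons, 56 changed sign with the offset and 31 without vehicle 2 and SFN 2. The offset was fitted to the same libraries and the same GC content, so smaller GC correlations follow from how it is made. Per library, the rank correlation of deviation with GC content was -0.81 to -0.42 in SFN and 0.23 to 0.64 in SFN+ZA. Whether the offset also took out differences between treatments was not tested. How far GC content or library quality made the unadjusted values was not tested beyond these measurements.

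**Figure D4:**
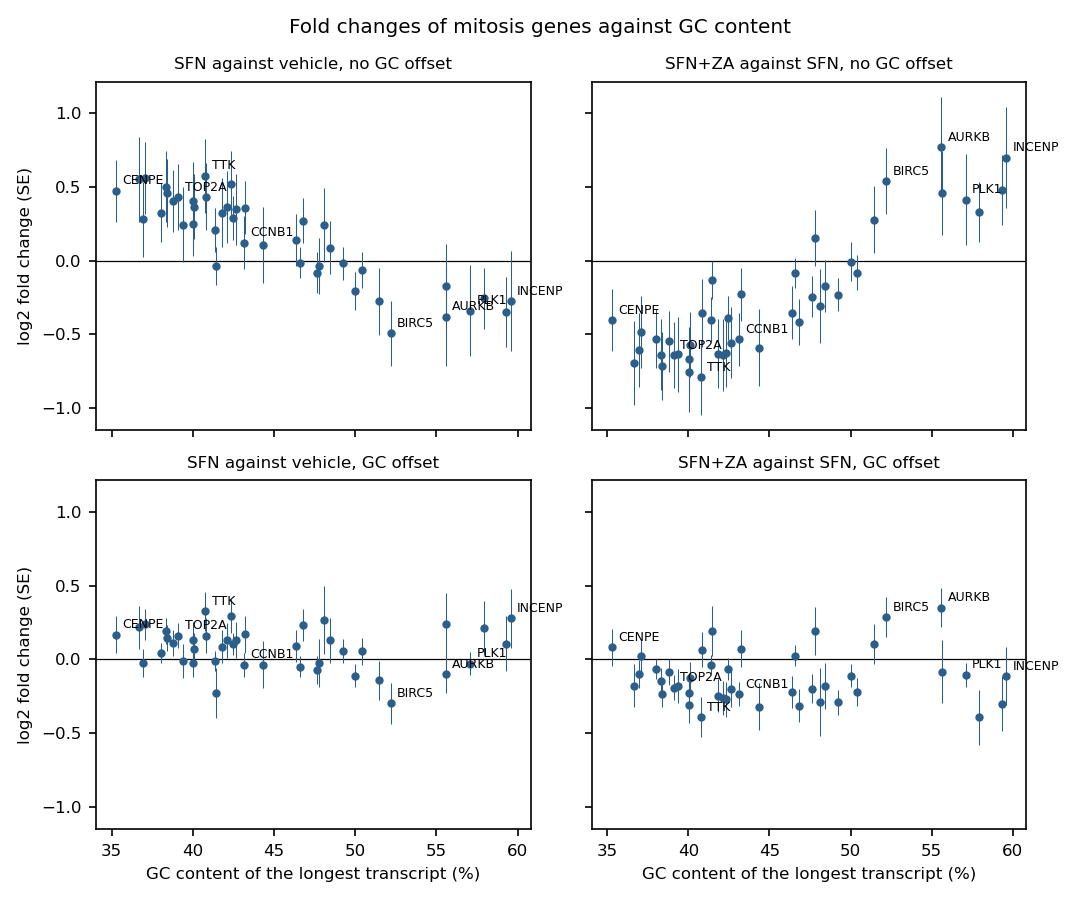
Log2 fold change with SE (vertical axis) against GC content of the longest transcript (horizontal axis) for the 43 genes, without the offset (top) and with it (bottom). Without it TTK lies at 0.58 and AURKB at -0.38 in SFN against vehicle and the order turns over in SFN+ZA against SFN, and with it the same genes lie at 0.33 and -0.10.

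After the GC adjustment the share of members whose SFN+ZA libraries lay apart from vehicle, in either direction, was 25.6% against 25% of all genes. CCNB1 stood at GC-adjusted 394, 469 and 428 CPM in vehicle, 422, 423 and 415 in SFN, 409.6, 381 and 368 in ZA and 356, 363 and 351 in SFN+ZA. The 3 SFN+ZA libraries were the lowest 3 of the 12 for CCNB1. PTTG1 stood at GC-adjusted 163, 169 and 188 CPM in vehicle, 185, 189 and 166 in SFN, 163, 151 and 151 in ZA and 139, 154 and 148 in SFN+ZA. Every SFN+ZA library was below every vehicle and SFN library for PTTG1. AURKB stood at GC-adjusted 91.6, 67.9 and 88.8 CPM in vehicle, 87.0, 70.5 and 74.1 in SFN, 70.4, 89.2 and 88.3 in ZA and 97.2, 100.3 and 98.0 in SFN+ZA. The SFN+ZA libraries of AURKB were the highest 3, above a vehicle range that vehicle 2 widened. In SFN+ZA against vehicle 1 member lay higher and 10 lower without overlap (BUB3, CCNA2, CCNB1, CCNB2, CDC20, CDC25C, NEK2, PTTG1, SPC25 and UBE2C lower), of which BUB3 and CDC20 overlapped before the adjustment. Over all 15142 genes 1887 lay higher and 1891 lower. The members' split by direction describes genes that share the same libraries and was not tested. In SFN+ZA against SFN 2 members lay higher and 16 lower (41.9%), against 2209 genes higher and 2231 lower (29.3%).

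With the GC offset and without vehicle 2 and SFN 2, standard errors were smaller and still no member was called. In SFN+ZA against vehicle 471 of 15353 genes passed the adjusted test (3.07%), and 0 of 43 members did, with a lowest adjusted p of 0.0786 for PTTG1 in edgeR. The unadjusted p was under 0.05 for 10 members, 1 higher and 9 lower, against 18.2% of all genes. PTTG1 had -0.26 ± 0.08, SPC25 -0.24 ± 0.08, CDC25C -0.22 ± 0.09, CCNB1 -0.21 ± 0.06, CCNB2 -0.20 ± 0.06 and UBE2C -0.19 ± 0.06 on the log2 scale. CDK1 had -0.02 ± 0.06, TOP2A 0.01 ± 0.07 and KIF11 0.04 ± 0.06, whose values lie within 1 SE of 0. In SFN+ZA against SFN 14 members had an unadjusted p under 0.05, 4 higher and 10 lower, against 19.7%, led by CCNB1 at -0.23 ± 0.06 (adjusted p = 0.0887 in edgeR). AURKB had 0.29 ± 0.10 there and 0.41 ± 0.13 in the interaction (unadjusted p = 0.00759, adjusted p = 0.581 in edgeR).

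**Figure D5:**
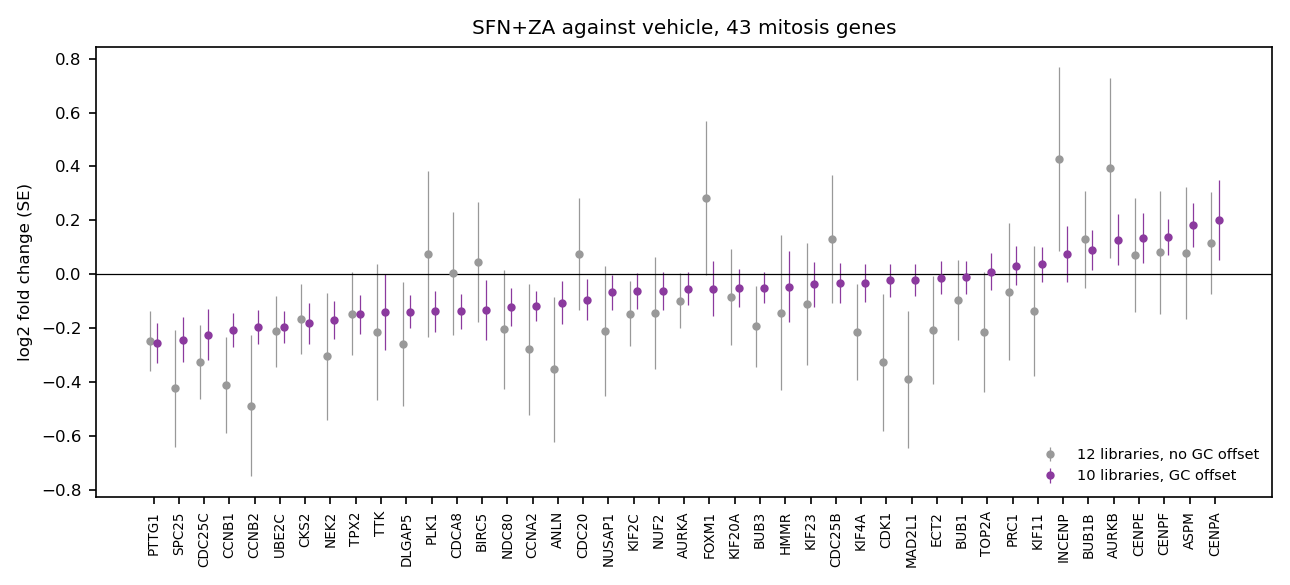
Log2 fold change with SE in SFN+ZA against vehicle for each of the 43 genes, ordered by the fit on 10 libraries with the GC offset (purple), beside the fit on 12 libraries without it (grey). The fits differ in both the offset and the libraries: PTTG1 has -0.25 on 12 libraries without the offset and -0.26 on 10 libraries with it, while INCENP goes from 0.43 to 0.08 and CDK1 from -0.33 to -0.02.

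By the offset alone INCENP had 0.16 and CDK1 -0.12 in SFN+ZA against vehicle, and by leaving out the 2 libraries alone INCENP had 0.13 and CDK1 -0.10.

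A further 114 genes of mitosis outside the 43 were read in the same fit, all of which passed the low-count filter. Their medians were 0.17, -0.09, -0.14, -0.38, -0.04 and -0.20 in the 6 comparisons, and 0 were called in any. At an unadjusted p under 0.05 they numbered 9, 1, 2, 49, 0 and 3, or 7.89%, 0.877%, 1.75%, 42.98%, 0% and 2.63%, against 4.97%, 1.14%, 4.91%, 21.9%, 1.05% and 1.7% of all genes. On 10 libraries the median in SFN+ZA against SFN was -0.20. With the GC offset on those 10 libraries, 31 of 114 (27.2%) had an unadjusted p under 0.05 in that comparison, against 19.7% of all genes. LIN37, a DREAM subunit, had the lowest unadjusted p in ZA against vehicle at 2.56 ± 0.80 (edgeR, adjusted p = 0.9803). The cohesin and separase group of 11 genes had a median of -0.60 in SFN+ZA against SFN with 8 below 0 (-0.20 on 10 libraries), and the 17 genes of the anaphase-promoting complex had -0.24 with 11 below 0. The lowest unadjusted p values there belonged to SGOL1, the centromeric cohesin protector, at -0.88 ± 0.25 and CKAP2, a spindle protein, at -0.73 ± 0.21 (edgeR, adjusted p = 0.223 for both). With the GC offset and without vehicle 2 and SFN 2, KNTC1 (0.30 ± 0.07), TROAP (0.37 ± 0.08) and CENPT (0.42 ± 0.09) were higher in SFN+ZA than in vehicle at adjusted p of 0.0363, 0.0221 and 0.0194 in edgeR. These 3 of 114 are 2.63%, near the 3.07% of all genes called in that fit.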

How the data were processed

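RNA from MDA-MB-231 cells was sequenced in 12 libraries, 3 for each of 4 groups. The authors deposited raw read counts per gene, whole numbers that sum to 15.3 to 25.4 M per library, in a table of 57905 genes. The deposited FPKM values were used only to compare levels between genes. The authors' deposited table also held log2 fold changes, each with a p-value before and after adjustment. Per the submitters' processing notes, HISAT2 (no version given) and the build GRCh37 (hg19) were used. The read counter, strand setting and library kit are not given in the sources used here. No per-sample column was left unmapped.

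Counts were tested with edgeR 4.0.16 (R 4.3.3), using filterByExpr, TMM scaling, a mean per group over all 12 libraries and a two-sided quasi-likelihood F test with robust dispersion and Benjamini-Hochberg adjustment over the 15142 genes tested, called under 0.05. SE was derived from each fold change and its F statistic (absolute log2 value over root F). DESeq2 1.42.0 was an alternative. The GC offset is a lowess curve (span 0.3) of each library's log2 CPM deviation, with a prior count of 2, on the GC content of the longest GENCODE transcript, joined by Ensembl identifier (97.4% of tested genes). The fit was tested on simulated counts. Members, lists and tests were chosen with earlier results of these data known. Every member could be named; library values are given for 1 or more fixed members per role, and further genes are the 2 highest, 2 lowest and 3 lowest-p members and the 2 lowest-p other mitosis genes per comparison; other names were chosen after their values were seen. GC classes, and overlap of groups on GC-adjusted levels, were added after seeing the data. Same-numbered vehicle and SFN libraries deviated together from their group means (correlations 0.617, 0.654 and 0.279), including the 2 libraries that stand apart, which share the number 2. No label gives a pairing, and no other pair of groups had all 3 correlations over 0.1. Differently numbered libraries also deviated together, with 0.522 for vehicle 1 and SFN 3 and 0.372 for vehicle 3 and SFN 1. Differently numbered pairs of a vehicle and an SFN library that held vehicle 2 or SFN 2 ran from -0.65 to -0.36. These correlations cannot show a pairing, because library 2 stands apart in both groups and deviations are taken from the group mean. A marker gene of the fixed list is not reported here.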

Additional observations from a re-analysis of the deposited data

How the results depend on the processing

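No member was called under any of the 22 alternatives, and no called value could therefore change direction. The number of all genes called was 21 in SFN+ZA against vehicle and 6 in SFN+ZA against SFN with DESeq2's Wald test, and 52 in SFN+ZA against vehicle without vehicle 2 and SFN 2. With the GC offset and without those libraries it was 4, 18, 471, 39 and 11 in the first 5 comparisons. Leaving out each library in turn gave 0 to 19 genes called in SFN+ZA against vehicle, with 19 without SFN 2.

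The members' median log2 fold change moved by more than the replicate SD under the GC offset in SFN+ZA against vehicle (-0.0524) and the interaction (-0.10). With the offset and 10 libraries it was -0.0103 in SFN against vehicle, -0.0538 in SFN+ZA against vehicle, -0.0707 in SFN+ZA against SFN and -0.023 in the interaction. With the offset and the replicate block it was -0.0531 in SFN+ZA against vehicle, -0.16 in SFN+ZA against SFN and -0.10 in the interaction. The other mitosis genes' median in SFN+ZA against SFN was -0.10 with the offset, -0.07 with 10 libraries besides and -0.10 with the replicate block besides. Leaving out each library in turn moved the members' median from -0.0284 to 0.39 in SFN against vehicle (lowest without SFN 2), -0.18 to -0.0495 in ZA against vehicle (lowest without ZA 1), -0.23 to -0.0849 in SFN+ZA against vehicle (lowest without vehicle 1), -0.54 to -0.21 in SFN+ZA against SFN, and -0.45 to -0.0448 in the interaction (highest without SFN 2). For each of these shifts the cause was not tested.

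Same-numbered libraries had deviations that correlated at over 0.1 in 9 of 18 pairs, from -0.53 to 0.65, and in all 3 pairs for vehicle and SFN alone. The replicate block changed no call: it called 0 genes in each comparison and gave a member median of 0.23 in SFN against vehicle and -0.15 in SFN+ZA against vehicle. Each group has 3 libraries, 2 of the 12 stand apart, and counts of genes that overlap another gene carry its reads.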
